A study of Mus musculus with 10 samples.

Results

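The circadian clock genes Arntl, Clock, Per1, Per2, Per3, Cry1, Cry2, Nr1d1, Nr1d2 and Dbp were followed in macrophages of the mouse small intestine after experimental stroke. The members were the rows of the deposited gene table with these 10 gene symbols. All 10 were found among 17279 genes, and all 10 passed the filter on low counts, which left 16949 genes for testing. The macrophages were CX3CR1-GFP+ cells collected by fluorescence-activated sorting from the peeled mucosa of the whole small intestine. CX3CR1 is a chemokine receptor of monocytes and intestinal macrophages, and the sort relied on its green fluorescent reporter. One group (sham, n = 5) came from C57BL6/J mice 24 h after sham surgery. The other (pMCAO, n = 5) came from C57BL6/J mice 24 h after permanent occlusion of the middle cerebral artery, which blocks blood flow to part of a brain hemisphere. Replicate 1 of each group is named as a pool, and the remaining libraries carry no such mark. The labels give neither the hour of the day at which tissue was collected, nor the age or sex of the mice, nor whether the reporter allele was present in 1 or 2 copies.

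The circadian clock is a feedback loop of transcription that runs in most cells of the body. ARNTL (also called BMAL1) and CLOCK bind together to E-boxes and switch on the Period, Cryptochrome and Nr1d genes, and the PER and CRY proteins return to the nucleus to block that activity. NR1D1 and NR1D2 (REV-ERBα and REV-ERBβ) are nuclear receptors that repress Arntl through ROR elements, whereas DBP activates genes that carry D-boxes. In tissues taken around the clock, Arntl therefore peaks roughly opposite to Nr1d1, Dbp and the Period genes. Macrophages have such a clock, and it is known to shape their inflammatory output over the day.

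The DNA elements of this loop were sought in the promoters of the members, taken from RefSeq on GRCm38.p6 as windows of 300 bases around each annotated start. Promoter windows were held for 9 of the 10 members, with Per2 the exception. On both strands, the search covered the E-box (CACGTG), the E-prime box (CACGTT), the D-box (TTACGTAA or TTATGTAA) and the ROR element. No matches overlapped each other. The following stretches hold the matches, which are given in capitals, and each runs 5′ to 3′ on the strand of its gene. An E-prime box on the opposite strand reads AACGTG.

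Arntl, chr7:113207528-113207556, plus strand, ROR element: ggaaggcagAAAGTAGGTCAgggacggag
Per1, chr11:69098758-69098813, plus strand, E-box: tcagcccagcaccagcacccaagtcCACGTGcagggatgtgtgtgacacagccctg
Per3, chr4:151044791-151044895, minus strand, a pair of D-boxes: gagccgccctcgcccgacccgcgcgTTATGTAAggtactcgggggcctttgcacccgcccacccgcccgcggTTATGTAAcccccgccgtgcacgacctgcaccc
Cry1, chr10:85185084-85185158, minus strand, an E-prime box followed by an E-box: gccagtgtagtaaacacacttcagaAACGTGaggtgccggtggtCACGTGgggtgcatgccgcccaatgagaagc
Cry2, chr2:92434205-92434260, minus strand, E-prime box: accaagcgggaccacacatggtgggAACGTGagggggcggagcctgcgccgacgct
Nr1d1, chr11:98775378-98775430, minus strand, E-prime box: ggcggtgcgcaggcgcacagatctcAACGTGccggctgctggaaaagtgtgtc

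The ROR element of Arntl lay 26 bases downstream of the second of its 2 annotated starts. The E-box of Per1 lay 166 bases upstream of the first of its 2 starts, and the D-boxes of Per3 lay 205 and 158 bases upstream. Cry1 held both kinds of E-box, at 60 bases (E-box) and 79 bases (E-prime box) upstream. The E-prime boxes of Cry2 and Nr1d1 lay 166 and 28 bases upstream. Counted over the 9 members, the E-box was held by 2, the E-prime box by 3, the D-box by 1 and the ROR element by 1. Among 27025 genes with a promoter window, 8.09% held the E-box, 5.44% the E-prime box, 1.23% the D-box and 0.459% the ROR element. The windows of Clock, Nr1d2 and Dbp held none of these letters, and windows of this length leave out elements that lie farther away or within introns. Of the other clock genes described below, 22 of 30 had a promoter window, and the E-box was found in those of Tef, Bhlhe41, Ciart and Cipc.

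The deposited counts summed to between 18894151 and 60665972 per sham library (median 33913980) and to between 6430643 and 28672285 per pMCAO library (median 11605371). Counts of the weaker members were therefore less precise after pMCAO. All 13 macrophage markers were measured, and their summed level in CPM (counts scaled to a common library size by TMM, the trimmed mean of M-values) was 5830 to 12300 CPM in the sham libraries (median 10900) and 8110 to 15400 CPM in the pMCAO libraries (median 9920). Without Ptprc, a gene of all leukocytes and 1 of the 13, the sum was 3672 to 10010 CPM in sham and 5366 to 12500 CPM in pMCAO libraries. Transcripts of other cells were present as well, with B and plasma cell markers summing to 829 to 24800 CPM in sham (median 5870) and 1130 to 27300 CPM in pMCAO libraries (median 6760). Jchain made up most of this sum in every library, at 738 to 24250 CPM in sham and 1048 to 26770 CPM in pMCAO libraries. In these bulk libraries, fewer cells of a type and less RNA per cell cannot be told apart. Sham replicate 5 and pMCAO replicate 4 held Xist transcripts, which the remaining libraries held only in traces, and results were therefore also computed without both.

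Levels of different members were compared as RPKM, the CPM per kilobase of exon, since their transcripts differ in length. Per1, a Period gene that also responds quickly to stimuli, had the highest level, with a median of 12.5 RPKM over 10 libraries (5.52 to 21.8), and its mean lay at the 78.7th percentile of all genes in the table with an exon length. Nr1d2 (median 6.98 RPKM, 4.70 to 10.9) and Clock (median 6.82 RPKM, 4.92 to 10) followed. Nr1d1 (2.89 RPKM, 1.54 to 7.26), Cry1 (2.66 RPKM, 1.11 to 4.42), Arntl (2.49 RPKM, 1.61 to 3.25) and Per2 (2.40 RPKM, 1.56 to 5.70) formed a middle group of medians. Dbp (1.34 RPKM, 0.71 to 2.02), Cry2 (0.923 RPKM, 0.195 to 2.18) and Per3 (0.866 RPKM, 0.671 to 1.57) were lowest, with means at the 24.5th, 20.5th and 19.8th percentiles. The ranges of every pair of neighbours in this order overlapped. The lowest library for Clock and the lowest for Per1 were both above the highest library for Arntl, so that the level of Clock exceeded that of its binding partner in all 10 libraries.

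**Figure D1:**
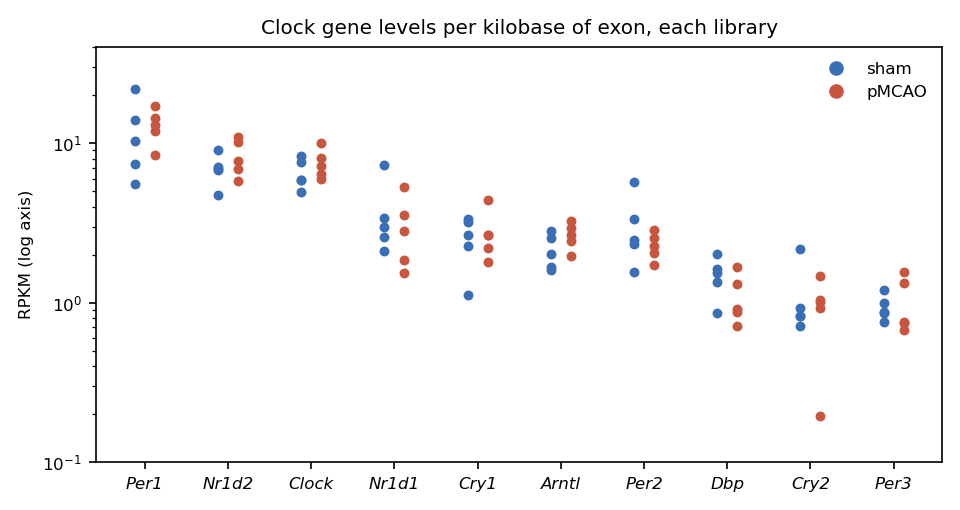
Levels of the 10 clock genes in RPKM (vertical log axis), ordered by their median, with a point for each of the 5 sham (blue) and 5 pMCAO (red) libraries. Per1, Nr1d2 and Clock stood highest with medians of 12.5, 6.98 and 6.82 RPKM, and the points of the 2 groups intermingled for each gene.

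The comparison of pMCAO with sham asked whether stroke altered the clock genes of gut macrophages after 24 h. None of the 10 members passed the test, and for all 10 the sham and pMCAO libraries overlapped. Arntl, Nr1d2, Clock, Per1, Cry1 and Per3 had a fitted fold change above 0 on the log2 scale and Per2, Dbp, Nr1d1 and Cry2 one below 0, with the differences spanning -0.44 to 0.31. The test was edgeR's quasi-likelihood test on all 16949 genes with Benjamini-Hochberg adjustment at a false discovery rate (FDR) of 0.05. It called 0 genes over the whole table (0%), and 799 genes (4.71%) had an unadjusted p under 0.05, against 0 of the 10 members. Of these, 383 were higher (2.26%) and 416 lower (2.45%) after pMCAO. DESeq2 called 3 genes, of which 0 were members. Groups without overlap occurred in 167 genes (0.985%), in 91 of them (0.537%) with the lower values after pMCAO. The fitted value was below 0 for 50.6% of all genes tested, beside 4 of the 10 members. The median log2 fold change was 0.12 for the members and -0.01 for all genes tested.

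Arntl, the activator without which the clock stops, lies on chromosome 7 from 113207465 to 113314126 on the plus strand (ENSMUSG00000055116; this and all following gene positions are from GENCODE M21 on GRCm38). Its level in sham replicates 1 to 5 was 19.2, 21.1, 12.5, 12.1 and 15.3 CPM, and in pMCAO replicates 1 to 5 it was 14.8, 20.0, 22.1, 24.4 and 18.3 CPM. The highest values were those of pMCAO replicates 4 and 3 and the lowest those of sham replicates 4 and 3, while the other libraries of both groups mixed. The means were 16 ± 3.99 (SD, n = 5) in sham and 19.9 ± 3.68 CPM (SD, n = 5) in pMCAO libraries. The log2 fold change was 0.31 ± 0.23 (SE), or 1.24-fold with a 95% interval of 0.884 to 1.75, which did not pass the test (edgeR, unadjusted p = 0.191, adjusted p = 0.922). An antisense gene, Gm45355, overlaps Arntl over 2394 bases and was not in the table.

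Clock encodes the partner of ARNTL and lies on chromosome 5 from 76209868 to 76304792 on the minus strand. Sham libraries held 104, 67.5, 80.2, 115 and 80.2 CPM and pMCAO libraries 110.5, 81.9, 98.7, 138 and 88.6 CPM, in replicate order. Replicate 4 was the highest in both groups, and replicate 2 was the lowest in both. Clock varied little beside most members, with a coefficient of variation (CV) of 21.7% in sham and 21.3% in pMCAO libraries. Its log2 fold change was 0.21 ± 0.19 (SE), with a 95% interval of -0.21 to 0.63 (edgeR, adjusted p = 0.925).

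**Figure D2:**
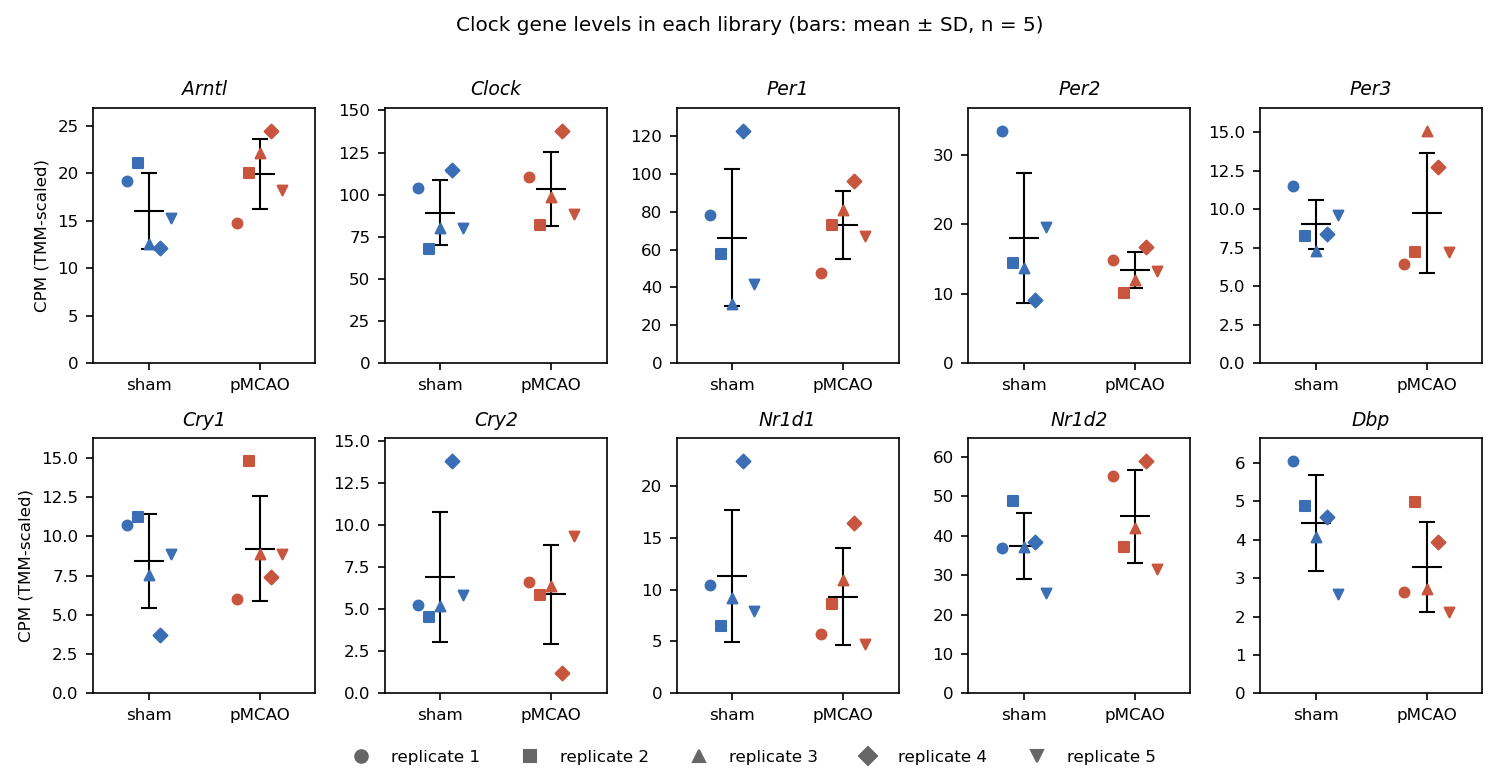
TMM-scaled CPM (vertical axes, each from 0) of the 10 clock genes in the sham (blue) and pMCAO (red) libraries, with a marker shape for each replicate number and the mean ± SD (n = 5). Every panel shows overlapping groups, and Cry2 shows replicate 4 at 13.8 CPM in sham and 1.23 CPM after pMCAO.

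Among the repressors, Per1 (chromosome 11 from 69095217 to 69109960, plus strand) was the most abundant and also the most uneven of the Period genes in sham libraries. Those libraries held 78.3, 57.8, 31.1, 123 and 41.9 CPM, a CV of 54.5%. In pMCAO libraries the level was 47.6, 73.1, 80.8, 96.2 and 67.2 CPM, a CV of 24.5%, and replicate 4 was again the highest. All pMCAO values of Per1 lay within the sham range. The log2 fold change was 0.14 ± 0.33 (SE; edgeR, adjusted p = 0.972), and it was -0.11 without both libraries that held Xist.

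Per2, the Period gene whose loss alone disturbs behavioural rhythms most, lies on chromosome 1 from 91415982 to 91459324 on the minus strand. Sham libraries held 33.4, 14.4, 13.7, 9.12 and 19.6 CPM and pMCAO libraries 14.8, 10.1, 11.9, 16.7 and 13.3 CPM. All 5 pMCAO values lay below the sham mean of 18.0 ± 9.35 CPM (SD, n = 5) but above the lowest sham library, replicate 4. Per2 had the lowest fitted value of the members, a log2 fold change of -0.44 ± 0.32 (SE), with an interval from -1.14 to 0.27 (edgeR, unadjusted p = 0.202, adjusted p = 0.922). Without sham replicate 1, the pool, the value lay closer to 0, at -0.09.

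Per3 contributes less to the core loop and lies on chromosome 4 from 151003652 to 151044665 on the minus strand, wholly within the span of Camta1 on the same strand. Its level was 11.5, 8.28, 7.26, 8.37 and 9.60 CPM in sham and 6.45, 7.21, 15.1, 12.7 and 7.23 CPM in pMCAO libraries. Sham libraries lay close together (CV 18.0%), whereas pMCAO replicates 3 and 4 stood above them and pMCAO replicates 1, 2 and 5 below their lowest value (CV 40%). The mean was 9 ± 1.62 CPM in sham and 9.73 ± 3.89 CPM in pMCAO libraries (SD, n = 5 each). The log2 fold change of Per3 was 0.11 ± 0.31 (SE; edgeR, adjusted p = 0.976). The host gene Camta1 had a log2 fold change of 0.14 ± 0.18 (SE; edgeR, adjusted p = 0.946), and the part of its reads in the count of Per3 was not tested.

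The Cryptochrome genes encode the strongest repressors of ARNTL and CLOCK. Cry1 (chromosome 10 from 85131700 to 85185064, minus strand) was at 10.7, 11.2, 7.55, 3.71 and 8.89 CPM in sham and 6.01, 14.8, 8.89, 7.38 and 8.90 CPM in pMCAO libraries. Sham replicate 4 was the lowest of the 10 libraries and pMCAO replicate 2 the highest, with the other libraries of both groups intermixed. The log2 fold change of Cry1 was 0.13 ± 0.35 (SE; edgeR, adjusted p = 0.976).

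Cry2 (chromosome 2 from 92403646 to 92434043, minus strand) had the widest spread of the members, 11.2-fold between its lowest and highest library. It was at 5.24, 4.53, 5.21, 13.8 and 5.85 CPM in sham and 6.6, 5.82, 6.37, 1.23 and 9.36 CPM in pMCAO libraries. Replicate 4 was thus the highest sham and the lowest pMCAO library, and the remaining 8 libraries lay between 4.53 and 9.36 CPM. The value in pMCAO replicate 4 rested on 15 counts, for which the 95% Poisson interval of 0.689 to 2.03 CPM covers counting error only, and that in sham replicate 4 on 219 counts. The log2 fold change was -0.23 ± 0.50 (SE; edgeR, adjusted p = 0.97). It was 0.17 without sham replicate 4 and 0.03 without pMCAO replicate 4, so that its sign rested on either library.

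Nr1d1, the REV-ERBα gene that links the clock to metabolism and inflammation, lies on chromosome 11 from 98767932 to 98775333 on the minus strand. It was at 10.5, 6.50, 9.16, 22.3 and 7.97 CPM in sham and 5.72, 8.64, 10.9, 16.4 and 4.74 CPM in pMCAO libraries. Replicate 4 was the highest in both groups, and pMCAO replicates 5 and 1 were the lowest of all. The log2 fold change was -0.28 ± 0.42 (SE), with an interval of -1.19 to 0.64 (edgeR, adjusted p = 0.953), and it was 0.11 without sham replicate 4. The 3′ end of Nr1d1 overlaps that of Thra, the thyroid hormone receptor α gene, over 1075 bases on the opposite strand. Thra shared the highest libraries with Nr1d1, with replicate 4 of sham at 23.6 CPM and of pMCAO at 21.5 CPM and the remaining 8 libraries from 5.46 to 13.7 CPM. Over the 10 libraries, Nr1d1 and Thra had a Pearson's r of 0.717 (permutation p = 0.0195) and a Spearman's rho of 0.539 (permutation p = 0.114), and r was 0.146 without the 2 libraries farthest from the median, so that the relation rested on them. Whether counting used the strand is not given in the sources used here, and the part of shared reads was not tested.

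Nr1d2, the REV-ERBβ gene, lies on chromosome 14 from 18204054 to 18239127 on the minus strand and was at 36.9, 48.9, 37.1, 38.4 and 25.4 CPM in sham libraries. In pMCAO libraries it was at 55.1, 37.0, 41.9, 58.8 and 31.5 CPM. The highest values were those of pMCAO replicates 4 and 1, and replicate 5 was the lowest of both groups. Its log2 fold change was 0.26 ± 0.22 (SE), or 1.20-fold with an interval of 0.861 to 1.67 (edgeR, adjusted p = 0.922). Unlike Nr1d1, Nr1d2 had a value above 0 under every alternative computed (0.03 to 0.38).

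Dbp is a direct output of the loop and one of the most rhythmic transcripts in many tissues. It lies on chromosome 7 from 45705088 to 45710203 on the plus strand. Its level was 6.04, 4.88, 4.06, 4.59 and 2.60 CPM in sham and 2.64, 5.00, 2.73, 3.94 and 2.13 CPM in pMCAO libraries. Sham replicates 1 to 4 and pMCAO replicates 2 and 4 made up the upper values, and sham replicate 5 lay with the low pMCAO libraries. Values as low as 18 counts (pMCAO replicate 1, 95% Poisson interval 1.56 to 4.17 CPM) and 27 counts (pMCAO replicate 3) limited its precision. The mean was 4.43 ± 1.26 CPM in sham and 3.29 ± 1.16 CPM in pMCAO libraries (SD, n = 5 each), and the log2 fold change was -0.43 ± 0.40 (SE; edgeR, unadjusted p = 0.305, adjusted p = 0.925). Dbp overlaps Sphk2 over 737 bases on the opposite strand, and Sphk2 had a log2 fold change of -0.38 ± 0.22 (SE; edgeR, adjusted p = 0.922).

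The intervals state what size of change these libraries could still hold. For 6 members (Arntl, Clock, Per1, Per3, Cry1 and Nr1d2) the 95% interval lay within 2-fold in both directions. For Per2, Cry2, Nr1d1 and Dbp it also held a fall of 2-fold, and for 0 members did it hold a rise of 2-fold.

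**Figure D3:**
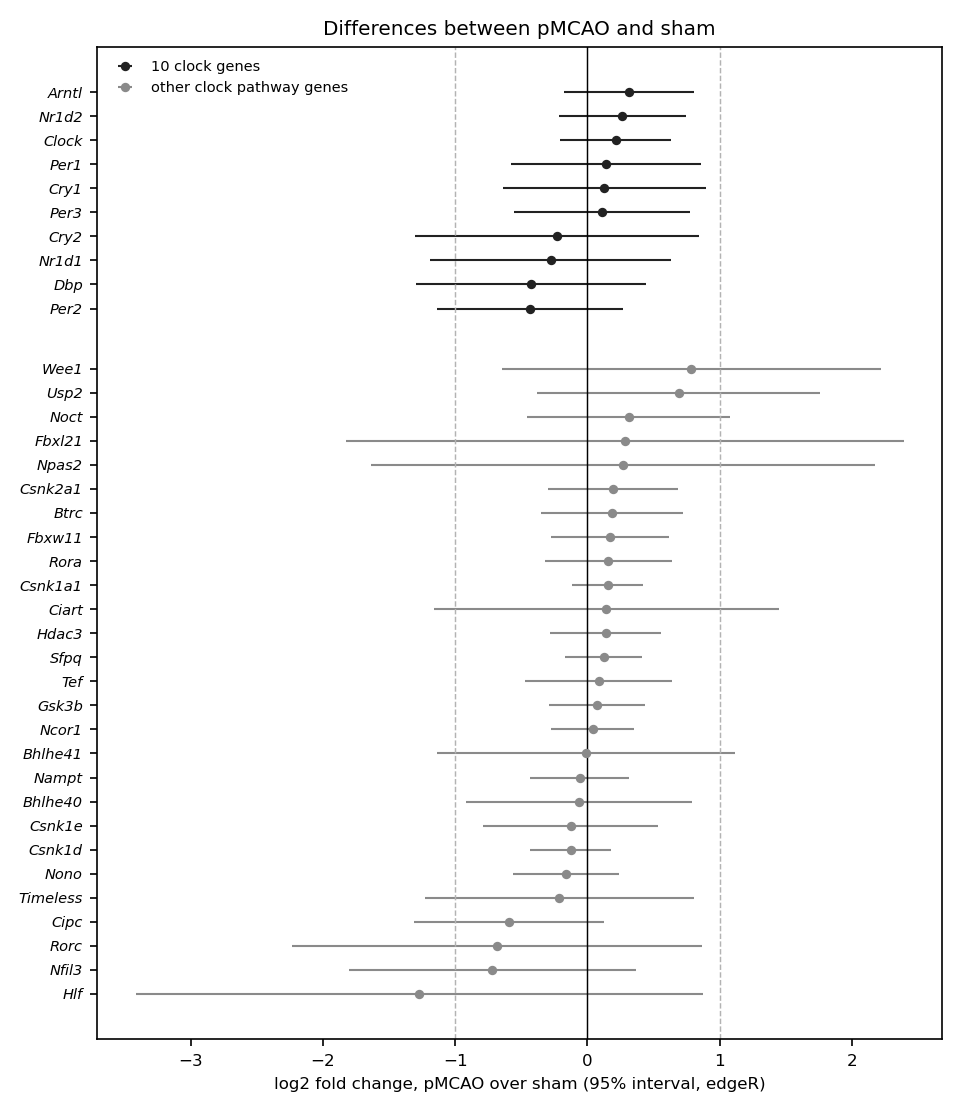
Log2 fold change of pMCAO over sham (horizontal axis) with a 95% interval derived from the F statistic of the edgeR test. Shown are the 10 clock genes (black) and other genes of the clock pathway (grey), each ordered by value, with dashed lines at a 2-fold change. All 10 member intervals cross 0, with Arntl at 0.31 and Per2 at -0.44 as the extremes.

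The other genes of the pathway were read from a list of 30 regulators and outputs of the clock, of which 28 were tested, with Arntl2 and Rorb not in the table. None of the 28 passed the test (edgeR, FDR of 0.05), and 0 had an unadjusted p under 0.05, a count that was 1 or 2 in 6 of 20 alternatives. The fitted value was above 0 for 17 and below 0 for 11, with a median log2 fold change of 0.10 and a range from -1.27 (Hlf, a relative of Dbp) to 0.79 (Wee1, a cell cycle kinase under clock control). Both ends included low counts and had a wide SE, 0.99 for Hlf and 0.66 for Wee1. Hlf had 0 counts in pMCAO replicate 3 and 8 in sham replicate 4, and Wee1 had 12 in sham replicate 4. The smallest p was that of Cipc, a CLOCK-binding repressor, with 34.5 ± 9.72 CPM in sham and 22.8 ± 10.3 CPM in pMCAO libraries (SD, n = 5 each). Its log2 fold change was -0.59 ± 0.33 (SE; edgeR, unadjusted p = 0.0968, adjusted p = 0.922). Nfil3, a repressor that competes with DBP for D-boxes, was at 34.9 ± 22.3 CPM in sham and 21.2 ± 14.8 CPM in pMCAO libraries, a log2 fold change of -0.72 ± 0.50 (SE; edgeR, adjusted p = 0.922).

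The labels give no hour of collection, and libraries taken at different phases of the clock would differ in opposite directions in Arntl and in Dbp or Nr1d1. The log2 ratio of Dbp to Arntl, which describes that balance, was -1.65, -2.10, -1.61, -1.39 and -2.52 in sham libraries and -2.46, -1.99, -2.99, -2.61 and -3.06 in pMCAO libraries. Of the pMCAO libraries, replicates 3, 4 and 5 lay below the lowest sham library, and replicates 1 and 2 lay within the sham range. The mean ratio was -1.85 ± 0.45 in sham and -2.62 ± 0.44 in pMCAO libraries (SD, n = 5 each), a difference of -0.77. The log2 ratio of Nr1d1 to Arntl was -0.87, -1.69, -0.45, 0.88 and -0.93 in sham and -1.36, -1.21, -1.01, -0.57 and -1.93 in pMCAO libraries. Only pMCAO replicate 5 lay below the lowest sham library in that ratio, and sham replicate 4 was the highest. Its mean was -0.61 ± 0.94 in sham and -1.22 ± 0.50 in pMCAO libraries (SD, n = 5 each). These ratios join genes chosen for this comparison, so they are given as a description with no test. Among the Period genes, Per1 and Per3 had a log2 fold change of the same sign as Arntl (0.14 and 0.11, beside 0.31). Per2 had one of the opposite sign (-0.44), and Nr1d2 one of the same sign (0.26). A difference in clock phase between the groups was not tested.

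**Figure D4:**
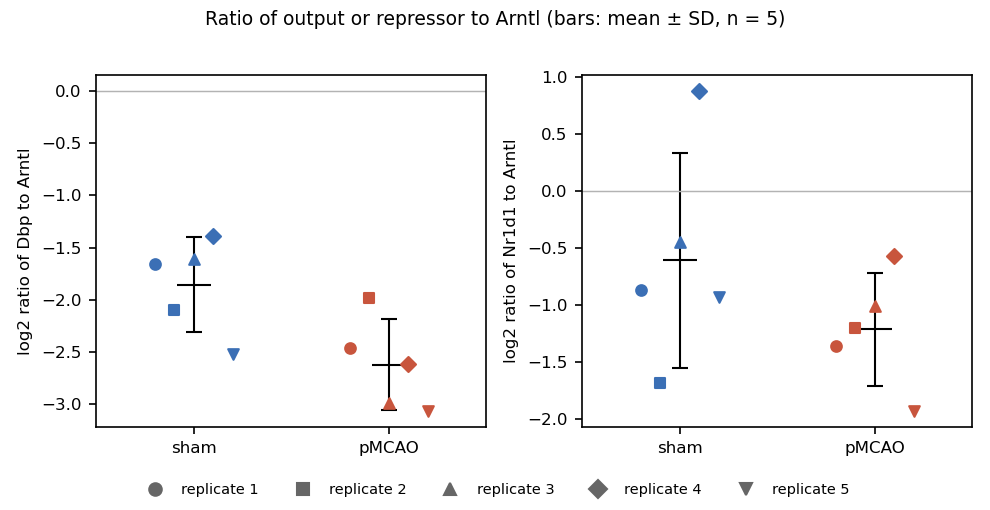
Log2 ratio of Dbp to Arntl and of Nr1d1 to Arntl (vertical axes) in the sham (blue) and pMCAO (red) libraries, with a marker shape for each replicate number and the mean ± SD (n = 5). For Dbp, 3 of 5 pMCAO libraries lay below the lowest sham library (-2.52), and for Nr1d1, 1 of 5 did so.

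Across the 10 libraries, none of the 9 other members had a relation with Arntl that passed adjustment (Pearson's r of log2 CPM, permutation test, Benjamini-Hochberg over 9 relations, smallest adjusted p = 0.226). Cry2 ran opposite to Arntl, with r = -0.620 (permutation p = 0.0417) and rho = -0.552 (permutation p = 0.103), and r was -0.606 without the 2 libraries farthest from the Arntl median. It was -0.473 without sham replicate 4 and -0.450 without pMCAO replicate 4, the libraries with the highest and the lowest Cry2. Cry1 ran with Arntl, with r = 0.622 (permutation p = 0.0502) and rho = 0.503 (permutation p = 0.146), but r was 0.304 without the 2 farthest libraries, so the relation rested on them. Per3 had r = 0.571 (permutation p = 0.0864) and rho = 0.479 (permutation p = 0.167). For Nr1d1 and Dbp, the members set against Arntl in the ratios above, r was -0.08 (permutation p = 0.828) and 0.08 (permutation p = 0.832). Of the 9 relations, only those of Cry2 and Nr1d1 were below 0. As a background, 2.12% of all genes tested had a lower r with Arntl than Cry2 did, and 2.19% had a higher r than Cry1.

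Sham replicate 4 decided the relation of Per1 with Arntl. Over 10 libraries r was 0.362 (permutation p = 0.305) and rho 0.358 (permutation p = 0.314), and without the 2 farthest libraries r was 0.874. Leaving out sham replicate 4 alone gave r = 0.930 and rho = 0.867 (permutation p = 0.00038 and 0.00461, n = 9), and the former passed adjustment over the 9 relations (adjusted p = 0.00342). That library was singled out after the values were seen, and the adjustment does not cover this choice. With each of the other libraries left out in turn, r was 0.077 to 0.406. Sham replicate 4 combined the highest Per1 with the lowest Arntl of all libraries. It was the highest of the 10 libraries for 3 members (Per1, Cry2 and Nr1d1) and the lowest for 3 (Arntl, Per2 and Cry1). The same library held the lowest sum of B and plasma cell markers (829 CPM) and the highest sum of immediate-early transcripts (11500 CPM), and the part of either in these values was not tested.

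Among all 45 pairs of members, a set added after the values were seen, r was above 0 in 28 and below 0 in 17, with a median of 0.09. None passed adjustment over the 45 pairs (smallest adjusted p = 0.555), and for Pearson's r 1 pair, Arntl with Cry2, had an unadjusted permutation p under 0.05. For Spearman's rho, Clock with Per1 (rho = 0.721, permutation p = 0.0229), Per1 with Nr1d1 (rho = 0.709, permutation p = 0.0262) and Per3 with Nr1d1 (rho = 0.685, permutation p = 0.0339) had one, each with an adjusted p of 0.509. The highest r was that of Per1 with Nr1d1, at 0.626 (permutation p = 0.0514), followed by that of Arntl with Cry1. Next were those of Clock with Per1 at 0.593 (permutation p = 0.0708) and with Nr1d1 at 0.590 (permutation p = 0.0722). Clock and Cry1 ran in opposite directions, at -0.566 (permutation p = 0.0857). Clock, Per1 and Nr1d1 shared their highest library, replicate 4, in both groups, and Cry1 had replicate 2 highest in both. Such agreement of the highest replicate number was found for 4 of the 10 members (40%) and for 31.5% of all genes tested. Replicate 2 also held the highest sum of B and plasma cell markers in both groups. That sum was 24790 CPM in sham and 27330 CPM in pMCAO, with 8144 and 8163 CPM as the next highest. The part of those cells in the level of Cry1 was not tested.

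**Figure D5:**
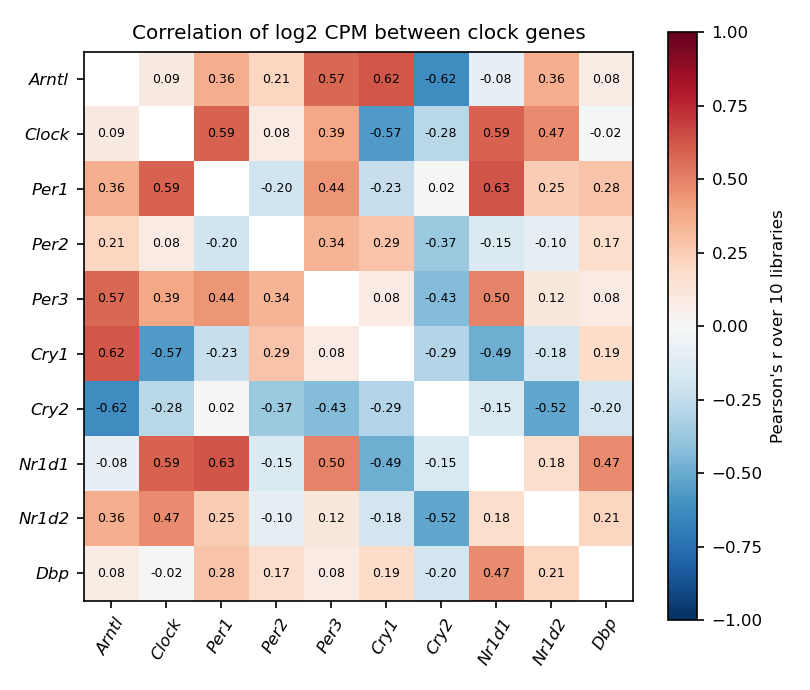
Pearson's r of log2 CPM over 10 libraries for each pair of the 10 clock genes (both axes), from -1 (blue) to 1 (red). Values ran from -0.62 (Arntl with Cry2) to 0.63 (Per1 with Nr1d1), and none passed adjustment over the 45 pairs.

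The genes whose pattern over the 10 libraries was most like that of Arntl were taken from 9045 genes with a mean of at least 10 CPM. That limit left out Per3, Cry1, Cry2 and Dbp, whose means were below it in both groups. None of the 5 genes at either end was a clock gene member. The highest r was that of Usp53 (0.895), followed by Dgke (0.893), Thbd (0.889), Eed (0.874) and Tsc22d3 (0.871). The lowest was that of Dlst (-0.946), followed by Abr (-0.903), Kif3b (-0.884), Gtf2e1 (-0.843) and Txlna (-0.828). With so many genes and 10 libraries, these values are a description of the libraries.

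Per1 is, beside its place in the clock, an immediate-early gene and a target of the glucocorticoid receptor, and both kinds of transcript were therefore summed. The 8 immediate-early genes (among them Fos, Jun and Egr1) summed to 4270 to 11500 CPM in sham (median 7130) and 6200 to 9090 CPM in pMCAO libraries (median 6720). The 6 glucocorticoid targets (Fkbp5, Tsc22d3, Zbtb16, Klf9, Sgk1 and Ddit4) summed to 187 to 450 CPM in sham (median 283) and 341 to 569 CPM in pMCAO libraries (median 390). The groups overlapped through sham replicate 1, the pool (450 CPM), while the other sham libraries (187 to 324 CPM) lay below the lowest pMCAO library. Tsc22d3 had the highest mean of the 6 in both groups and so weighed most in the sum. It was at 144 CPM in sham and 212 CPM in pMCAO libraries (edgeR, unadjusted p = 0.095). Of the 6, only Tsc22d3 had the order seen in the sum. Sham replicate 1 stood at 260.4 CPM. The other sham libraries (78.37 to 166.8 CPM) lay below the lowest pMCAO library (167.3 CPM). Sgk1, the next highest by mean, was at 56.11 to 133.9 CPM in sham and 56.95 to 136.2 CPM in pMCAO libraries. For Fkbp5 the ranges were 27.55 to 67.93 and 25.97 to 91.06 CPM. The order of the sum therefore cannot be read as one of the whole list. Each of the 6 had a fitted value above 0 (0.10 to 1.05, median 0.39 on the log2 scale), and 0 had an unadjusted p under 0.05. In 4 relations chosen after the values were seen and adjusted together, Per1 went with the glucocorticoid targets (r = 0.734, permutation p = 0.0156, adjusted p = 0.0312; rho = 0.697, permutation p = 0.0311). It also went with the immediate-early sum (r = 0.645, permutation p = 0.0431, adjusted p = 0.0431; rho = 0.697, permutation p = 0.0301). Without the 2 farthest libraries these r were 0.420 and 0.341, so both relations depended on those libraries. Without sham replicate 4, the library with the highest Per1, r was 0.929 for the glucocorticoid targets and 0.492 for the immediate-early sum. Computed on the deviations from the group means, they were 0.750 and 0.661.

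Nr1d1 is known to repress Cx3cr1, Mmp9, Ccl2 and Il6 in macrophages, and none of these genes passed the test between the groups. Cx3cr1, whose reporter was used for the sort, was at 161 ± 55.2 CPM in sham and 179 ± 43.0 CPM in pMCAO libraries, a log2 fold change of 0.15 ± 0.26 (SE; edgeR, adjusted p = 0.955). Mmp9, a matrix-degrading protease, was at 239 ± 163 and 231 ± 98.4 CPM (log2 fold change -0.05 ± 0.46; edgeR, adjusted p = 0.996). Ccl2, a chemokine that attracts monocytes, was at 144 ± 94.3 and 91.3 ± 26.3 CPM (log2 fold change -0.66 ± 0.39; edgeR, adjusted p = 0.922). The cytokine gene Il6 was near the low end, at 3.79 ± 1.62 and 3.41 ± 1.30 CPM (log2 fold change -0.15 ± 0.46; edgeR, adjusted p = 0.977).

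Across libraries, Nr1d1 and the sum of these 4 genes moved in the same direction (r = 0.770, permutation p = 0.00954, adjusted p = 0.0312; rho = 0.855, permutation p = 0.00275). The relation held without the 2 farthest libraries (r = 0.863) and on deviations from the group means (r = 0.787). Nr1d1 likewise went with the summed macrophage markers (r = 0.653, permutation p = 0.0410, adjusted p = 0.0431; rho = 0.830, permutation p = 0.00456), with r = 0.765 without the 2 farthest libraries. Without Ptprc in that sum, r was 0.646 and rho 0.83. Cx3cr1 belongs to both lists, and the part of the macrophage share of each library in the first relation was not tested. Il6 added least to the sum of the 4 genes, at 1.72 to 5.92 CPM. Its lowest values were 1.76 CPM in sham replicate 4 and 1.72 and 2.38 CPM in pMCAO replicates 3 and 4. These libraries had the highest Nr1d1, so the sum does not describe Il6. Those values rested on 28, 17 and 29 counts, and the relation of Il6 alone with Nr1d1 was not tested. Sums of the other cell types overlapped between the groups. They were 477 to 1040 CPM in sham and 134 to 1250 CPM in pMCAO libraries for epithelial markers, 188 to 353 and 163 to 223 CPM for T cell markers (8.74 to 239.9 and 24.4 to 118 CPM without Cd4, which intestinal macrophages also express), and 88.0 to 428 and 95.8 to 337 CPM for dendritic cell markers. For stromal and endothelial markers they were 61.1 to 102 and 44.0 to 83.6 CPM, and for eosinophil markers 3.08 to 20.8 and 6.06 to 35.5 CPM.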

How the data were processed

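RNA of sorted CX3CR1-GFP+ macrophages (2.0 ng per library) was sequenced after removal of ribosomal RNA with the Trio RNA-seq kit, as paired reads of 100 bases, per the labels. The submitters' processing notes name STAR, featureCounts, limma and GRCm38 (mm10). Versions, annotation and strandedness are not given in the sources used here. The deposited table holds raw counts, not normalized by the authors, and their CPM values, which were not used for the results here. The deposited columns of the authors' own comparison (log2 fold change, mean expression, p-value and FDR) were not used.

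The 10 members and all gene lists were chosen with earlier results of these data known. From the counts, genes were filtered with filterByExpr, scaled by TMM and tested with edgeR 4.0.16 in R 4.3.3 (limma 3.58.1, DESeq2 1.42.0 as alternatives) over all 16949 genes, with 5 sham and 5 pMCAO libraries and no covariate. P-values measure only the spread between these libraries. Correlations used log2 CPM with a prior count of 2 and two-sided permutation tests with 100000 resamples (Python 3.11.15). RPKM used exon lengths of GENCODE M21. Named were the members, the 3 pathway genes with the smallest p (of which 1 is not reported here), the 4 genes repressed by NR1D1 and the 5 genes at each end of the correlation with Arntl. Sums without Ptprc or Cd4 were added after the data were seen. Wee1, Hlf and the overlapping genes Thra, Camta1 and Sphk2 were named after their values were seen. On simulated counts with 96 genes changed 2-fold and 96 changed 4-fold, edgeR recovered 5.21% and 46.9% of them, with 2 false calls among 16644 genes. The least different libraries differed by a chi-square of 49.7 per degree of freedom over 12089 genes, far above sampling noise, and each entered as its own replicate.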

Additional observations from a re-analysis of the deposited data

Results flagged for a closer look

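In each group of 5 libraries, the distance of the highest or lowest library from its nearest neighbour was set against the range of the group on the log2 scale, for 24 groups. Cry2 stood apart in both groups, in opposite directions and in the libraries numbered 4. In the sham group, replicate 4 was the highest (13.8 CPM) and its gap took up 0.771 of the range. In the pMCAO group, replicate 4 was the lowest (1.23 CPM) and its gap took up 0.763. The limit for 5 libraries is 0.71, and chance alone would place 1.2 of 24 groups above it, against 2 found.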

How the results depend on the processing

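The 10 members were recomputed under 20 alternatives, and 0 of them passed an FDR of 0.05 or had an unadjusted p under 0.05 in any. The lowest unadjusted p of a member over these alternatives was 0.061 (Per2). Arntl, Clock and Nr1d2 kept a value above 0 and Per2 and Dbp one below 0 throughout. With each library left out in turn, the log2 fold change was 0.22 to 0.43 for Arntl, 0.08 to 0.31 for Clock, 0.14 to 0.38 for Nr1d2, -0.61 to -0.09 for Per2 and -0.64 to -0.29 for Dbp. The sign of the other members depended on the setting. Without a library in turn, Per3 ran from -0.11 to 0.22, Cry1 from -0.11 to 0.25, Cry2 from -0.47 to 0.17, Nr1d1 from -0.59 to 0.11, Per1 from -0.042 to 0.47 and the median of the members from -0.005 to 0.21. Under limma-voom Per3 was -0.069, and sample quality weights gave it -0.142. Those weights also gave -0.043 for Cry1 and 0.074 for Cry2, and counts thinned to the smallest library gave -0.062 for Cry1. Without both Xist libraries, Per1 was -0.11 and the median of the members -0.005. The causes were not tested.

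Over all genes, DESeq2 called 3 and edgeR 0, and 0 were called under the remaining alternatives. The 28 pathway genes held 2 with an unadjusted p under 0.05 under the replicate block, 1 with sample quality weights and 0 to 2 with a library left out. Genes with an unadjusted p under 0.05 numbered 799, but 1888 with sample quality weights, 462 without both pools and 1268 without pMCAO replicate 2. The number of members related to Arntl past adjustment was 0 to 1 with a library left out, the 1 being Per1 without sham replicate 4. The difference in the Dbp to Arntl ratio was -0.94 to -0.65 over 13 alternatives, and that of Nr1d1 to Arntl -0.87 to -0.23. Replicate numbers are shared by the groups, and same-numbered libraries correlated at 0.0463, 0.341, -0.00549, 0.232 and 0.372 after removal of the group means. Whether the numbers pair the libraries is not given in the labels and was not settled by these values. As a replicate block the numbers gave 0 called genes, 0 members with an unadjusted p under 0.05 and 1303 such genes in all, and 5 of 10 libraries correlated best with their own number. Counting error was widest for the lowest counts, 15 of Cry2 in pMCAO replicate 4 and 18 of Dbp in pMCAO replicate 1, the smallest library. EdgeR recovered 5.21% of 96 genes changed 2-fold in simulated libraries of this spread.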
